A study of Zea mays with 12 samples.

Results

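The soil response of maize leaves was compared between a line that tolerates aluminium and one that is sensitive to it, and the genes described here are those whose response differed between the lines. For each probe set, the set of short probes that reports 1 transcript, the change from control to acid soil in S1587-17 was subtracted from the change in Cat100-6. Of the 17621 probe sets tested, 2588 passed with all 12 arrays, which is 14.7% of them, and 7920 (44.9%) passed when S1587-17 control soil replicate 3 was left out. All 2588 also passed with 11 arrays, in the same direction. A positive difference below means that the response of Cat100-6 was higher than that of S1587-17, and a negative one that it was lower.

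The 4 groups held 3 arrays each. Both lines are tropical inbreds, of which the labels call Cat100-6 Al-tolerant and give S1587-17 as sensitive, and leaves were taken after 3 days in soil. The acid soil had a pH of 4.1 and contained aluminium, and the control was the same soil limed to pH 5.5, in which aluminium was undetectable. Both soils were fertilized, and calcium was added to the acid soil to make up for the liming. The labels call the samples biological replicates without saying whether they came from separate soil bags, so the p-values measure only the spread between these samples. The source labels write Ca100-6 and a description says root leaves, which were read as Cat100-6 and as leaves. Photosynthetic genes were bright on every array, with the light-harvesting gene lhcb6 between 13.89 and 14.12 on the log2 scale.

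In acid soils aluminium dissolves and stops root growth, so that leaves experience the soil through water, nutrients and signals from the root. A maize leaf grows from dividing and expanding cells at its base, which make ribosomes, tubulin and cell walls, while mature cells further up fix carbon and export sucrose. Secreted and wall proteins are folded in the endoplasmic reticulum (ER) by chaperones such as BiP and calreticulin and by protein disulfide isomerases. In whole leaves, fewer cells of a type and less RNA per cell cannot be told apart.

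One array stood apart from its label's group. Within a group, arrays correlated at 0.985 or above over all probe sets, whereas S1587-17 control soil replicate 3 correlated at 0.963 to 0.967 with its group-mates. Among probe sets where Cat100-6 control soil and the other S1587-17 control arrays were at least 1 log2 unit apart, this array lay at a median of 0.453 of the way towards Cat100-6 control soil. Results are therefore given with 12 and with 11 arrays. The 9 probe sets for hybridization controls, RNAs added in fixed amounts before hybridization, were at 10.21 ± 0.21 with control and 9.715 ± 0.31 with acid soil on the Cat100-6 arrays, and were at 10.26 ± 0.05 and 10.17 ± 0.007 on those of S1587-17 (mean log2 value, SD, n = 3). Rescaling the arrays to them raised the median difference of all probe sets from -0.10 to 0.30. The control RNAs dap, lys, phe and thr, with 3 probe sets each, were highest in Cat100-6 control soil, whose arrays lay above the other 9 for each of them. In the order of control and acid soil, dap was at 9.12 and 8.36 in Cat100-6 and at 8.32 and 8.27 in S1587-17, and thr at 7.48 and 6.73, then 6.71 and 6.66. For lys the means were 6.13 and 5.51, then 5.19 and 5.19, and for phe 6.65 and 6.09, then 6.10 and 6.05. The part of these controls in the results was not tested.

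The difference between the responses came from a large change in Cat100-6 beside a small one in S1587-17. Among the 2588 probe sets the median size of the Cat100-6 response was 1.14 log2 units and that of the S1587-17 response 0.148, or 0.086 with 11 arrays. Taken alone, the Cat100-6 response passed in 2576 of them and the S1587-17 response in 0 of them in the same limma fit. At an unadjusted p under 0.05 in that fit, the S1587-17 response was positive in 57 and negative in 49. Over all 17621 probe sets the responses passed in 9697 and 0, with median sizes of 0.395 and 0.115 log2 units. These contrasts share arrays with the difference that chose the probe sets, so the counts are a description. Responses of opposite sign were seen in 549 with 12 arrays and in 1589 with 11, compared with 4274 and 9527 of all 17621. With 12 arrays the difference was positive in 1544 probe sets (8.76% of all tested) and negative in 1044 (5.92%). With 11 arrays it was positive in 3627 (20.6%) and negative in 4293 (24.4%).

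**Figure D1:**
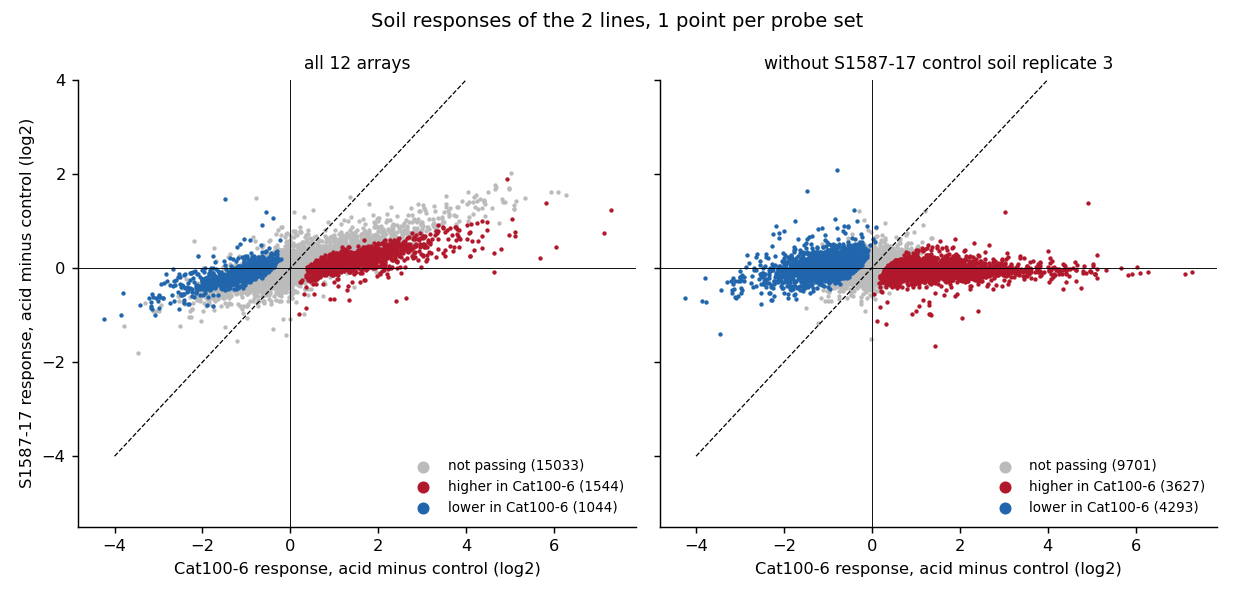
Response to acid soil (log2 acid minus control) of Cat100-6 on the horizontal and of S1587-17 on the vertical axis, with 1 point per probe set and the dashed line marking equal responses. Left: all 12 arrays, with 2588 probe sets passing. Right: without S1587-17 control soil replicate 3, with 7920 passing. The coloured points spread along the horizontal axis and stay close to 0 on the vertical one.

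Cat100-6 control soil was the group that lay apart, as it was for dap, lys, phe and thr. In 2203 of the 2588 probe sets (85.1%) its 3 arrays were all above or all below the other 9, compared with 38.0% of all probe sets. They were the lowest arrays in 1333 of the 1544 probe sets with a positive difference and the highest in 870 of the 1044 with a negative one. Cat100-6 acid soil lay apart from the rest in 577 (22.3%, against 14.9% of all). The median gap between the lines was 1.03 log2 units in control soil and 0.281 in acid soil, compared with 0.388 and 0.229 over all probe sets. It was smaller in acid soil in 84.2% of the 2588 and in 66.4% of all probe sets. The change in the gap between soils is the difference that chose these probe sets, so these values are a description.

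**Figure D2:**
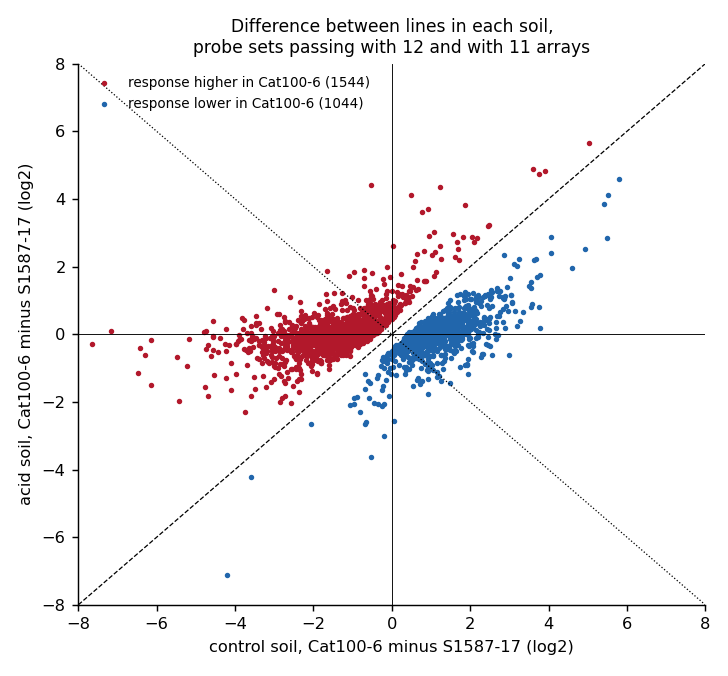
Difference between lines (Cat100-6 minus S1587-17, log2) in control soil on the horizontal and in acid soil on the vertical axis, from 11 arrays, for the 2588 probe sets that passed in both fits. Most points lie in the wedges between the dashed and dotted lines to the left and right, where the gap is smaller in acid than in control soil.

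Of the 974 genes with a readable name, each taken at its brightest probe set, 166 passed with 12 arrays (104 higher and 62 lower in Cat100-6) and 518 passed with 11 (235 higher and 283 lower). Array values below are log2 expression in the order of replicates 1, 2 and 3. Differences are log2 values ± SE from limma with Benjamini-Hochberg adjusted p, with 3 arrays in each group unless 11 arrays are named. List counts are to be read beside 8.76% higher and 5.92% lower among all probe sets with 12 arrays, and 20.6% and 24.4% with 11. They count probe sets, so a gene can count more than once. At 1 probe set per gene and 12 arrays, the ER list had 10 higher and 1 lower of 17. Ribosomal and translation genes then had 15 and 0 of 30, and tubulins and actins 7 and 0 of 19.

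Genes for protein folding in the ER had higher responses in Cat100-6. Of 25 probe sets on the list of ER chaperones and protein disulfide isomerases, 14 were higher, 2 lower and 9 did not pass. The median difference was 0.97, against -0.10 over all probe sets. With 11 arrays 18 were higher and 2 lower. Both lower probe sets belong to der4, named as a derlin, a family that moves misfolded proteins out of the ER, and differed by -0.91 and -0.61.

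crt2 (LOC542732) encodes calreticulin, a calcium-binding chaperone. It read 8.74, 8.83 and 8.73 in Cat100-6 control soil, 11.51, 11.99 and 11.56 in acid soil, 11.84, 12.24 and 11.10 in S1587-17 control soil, and 12.02, 12.24 and 12.03 in acid soil. The Cat100-6 control arrays were below the other 9, which lay between 11.10 and 12.24. The difference was 2.56 ± 0.34 (adjusted p = 0.00171), and 2.87 ± 0.21 with 11 arrays (adjusted p = 5.57e-06).

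The protein disulfide isomerase gene pdi (LOC606409) read 7.32, 7.09 and 7.10 in Cat100-6 control soil, 10.06, 10.63 and 9.89 in acid soil, 10.07, 10.48 and 8.49 in S1587-17 control soil, and 10.21, 10.37 and 10.35 in acid soil. Here the third S1587-17 control array was lower than the other S1587-17 arrays, yet above every Cat100-6 control array. The difference was 2.40 ± 0.57 (adjusted p = 0.0221) and 2.99 ± 0.26 with 11 arrays (adjusted p = 1.54e-05). The related genes pdi6 and pdi7 differed by 1.34 ± 0.21 and 1.25 ± 0.21 (adjusted p = 0.00406 and 0.00634). bip1 (LOC732808), the ER member of the HSP70 chaperones, differed by 1.81 ± 0.47 (adjusted p = 0.0315), a call that held in 2 of the 12 fits that left out 1 array, those without Cat100-6 acid soil replicate 3 and without S1587-17 control soil replicate 3 (adjusted p up to 0.077 in the others).

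Chaperones outside the ER were mixed. On the list of heat shock proteins 3 of 13 probe sets were higher and 1 lower, with a median of 0.70, against 8.76% and 5.92% of all probe sets. With 11 arrays 7 were higher and 4 lower. CPN60I, a chaperonin, differed by 1.87 ± 0.57 (adjusted p = 0.0483) and the small heat shock protein gene hsp22 by 1.46 ± 0.41 (adjusted p = 0.0394). The small heat shock protein gene hsp18 went the other way, at -1.67 ± 0.39 (adjusted p = 0.0208, and 0.052 on the scale of the hybridization controls). LON2, named as a Lon protease, a family that degrades damaged organelle proteins, differed by 1.96 ± 0.53 (adjusted p = 0.0344).

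Ribosomal protein and translation factor genes were higher in Cat100-6 at 20 of 51 probe sets and lower at 0, with a median difference of 0.52, and with 11 arrays 32 were higher and 2 lower. The ribosomal protein gene rps27 (LOC542617) read 11.64, 11.63 and 11.67 in Cat100-6 control soil, rising to 12.82, 13.09 and 12.71 with acid soil. In S1587-17 it read 12.97, 13.02 and 12.41 in control and 12.90, 12.91 and 13.01 in acid soil. The Cat100-6 control arrays were again the lowest, by more than the range of any group, and the difference was 1.09 ± 0.22 (adjusted p = 0.0128). arpp2a-3, an acidic protein of the ribosomal stalk, differed by 1.74 ± 0.31 (adjusted p = 0.0078).

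Cytoskeleton genes gave 11 higher and 0 lower of 28 tubulin and actin probe sets, with a median of 0.28. With 11 arrays 13 were higher and 3 lower. The β-tubulin gene tub4 (LOC542417) read 10.39, 10.31 and 10.60 in Cat100-6 control soil, 11.91, 11.75 and 11.69 in acid soil, 12.23, 12.03 and 12.02 in S1587-17 control soil, and 12.16, 12.04 and 11.94 in acid soil. The S1587-17 groups overlapped, the third control array among them, while the Cat100-6 groups were apart. The difference was 1.40 ± 0.16 (adjusted p = 0.000812), and that of the α-tubulin gene tua6 was 1.23 ± 0.20 (adjusted p = 0.00489).

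Among ROP proteins, the small GTPases that direct polar growth of plant cells, members differed in size. Their list, with protein kinases, had 9 higher and 0 lower of 23 probe sets and a median of 0.27, and 10 higher and 4 lower with 11 arrays. rop6 (LOC542017) read 5.11, 4.45 and 4.88 in Cat100-6 control soil, 8.65, 8.77 and 8.20 in acid soil, 8.93, 8.67 and 7.51 in S1587-17 control soil, and 8.82, 8.71 and 8.91 in acid soil. Only the Cat100-6 control arrays were low. Its difference of 3.28 ± 0.45 (adjusted p = 0.0021) was followed by those of rop3, 2.21 ± 0.60 (adjusted p = 0.0359), and rop7, 1.24 ± 0.22 (adjusted p = 0.00744). Of the other members, rop1 and rop9 differed by 1.01 and 0.67 (adjusted p = 0.0075 and 0.027), and rop2 and both genes named rop4 did not pass, at 0.31, -0.14 and -0.36.

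**Figure D3:**
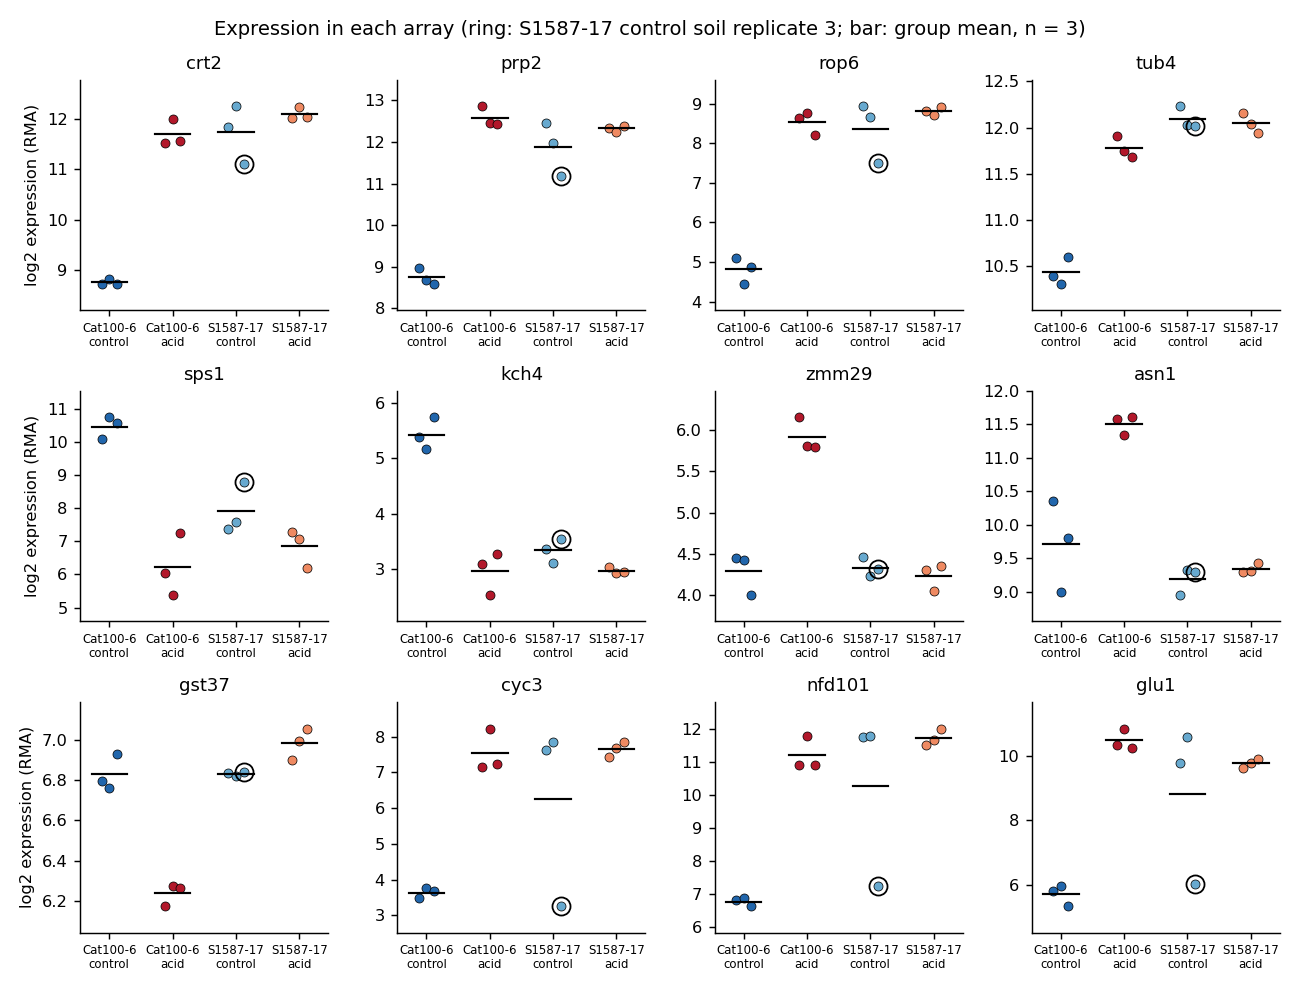
Log2 RMA expression of 12 genes in each array, by line and soil. Points are arrays, bars are group means (n = 3) and the ring marks S1587-17 control soil replicate 3. In crt2, prp2, rop6, tub4, sps1 and kch4 the Cat100-6 control arrays lie apart, in zmm29, asn1 and gst37 the Cat100-6 acid arrays do, and in cyc3, nfd101 and glu1 the ringed array lies near Cat100-6 control soil.

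Among named genes at their brightest probe set, the highest difference that passed was that of prp2 (LOC542195), which has no description in the gene table used. It read 8.98, 8.69 and 8.59 in Cat100-6 control soil, 12.86, 12.46 and 12.44 in acid soil, 12.45, 11.98 and 11.19 in S1587-17 control soil, and 12.34, 12.25 and 12.39 in acid soil. Only Cat100-6 control soil was low, with the 9 other arrays at 11.19 or above. The difference was 3.38 ± 0.36 (adjusted p = 0.000682). Other positive differences were those of thi2, named for thiamine synthesis, at 2.55 ± 0.38 (adjusted p = 0.00344), nip1a, a NOD26-like channel, at 1.91 ± 0.21 (adjusted p = 0.00081), and aic1, whose alias aux1 is that of an auxin importer, at 1.95 ± 0.50 (adjusted p = 0.0298). fps1, a farnesyl diphosphate synthase of isoprenoid synthesis, hmg2, a high-mobility-group chromatin protein, and lbl1, which acts in small RNA production and leaf polarity, differed by 2.78, 2.76 and 2.53 (adjusted p = 0.049, 0.0386 and 0.0446). These last 3 calls held in 2 of the 12 fits with 1 array left out, those without Cat100-6 acid soil replicate 3 and without S1587-17 control soil replicate 3.

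Sucrose genes went both ways. On the list of 12 probe sets 1 was higher and 3 lower, with a median of -0.32 that turned to 0.08 when arrays were set to the hybridization controls. With 11 arrays 2 were higher and 5 lower. sps1 (LOC542711), a sucrose phosphate synthase, read 10.09, 10.75 and 10.59 in Cat100-6 control soil, 6.05, 5.38 and 7.26 in acid soil, 7.39, 7.59 and 8.81 in S1587-17 control soil, and 7.30, 7.07 and 6.18 in acid soil. Cat100-6 control soil was above all other arrays, and the acid soil groups of the lines overlapped. The difference was -3.17 ± 0.69 (adjusted p = 0.017), the lowest among named genes.

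sut1 (LOC541615), a sucrose transporter that loads the phloem, read 10.94, 11.13 and 11.02 in Cat100-6 control soil, 8.49, 7.57 and 9.23 in acid soil, 8.40, 9.01 and 10.33 in S1587-17 control soil, and 9.02, 9.14 and 8.85 in acid soil. Cat100-6 control soil was the highest group, and the third S1587-17 control array came next. The difference of -2.36 ± 0.65 (adjusted p = 0.0358) held in 2 of the 12 fits with 1 array left out, those without Cat100-6 acid soil replicate 3 and without S1587-17 control soil replicate 3 (adjusted p up to 0.0832 in the others). The sucrose synthase gene sus1, whose enzyme cleaves sucrose, went the other way at 1.39 ± 0.27 (adjusted p = 0.0103). The cell wall invertase gene incw1 was lower, at -1.36 ± 0.32 (adjusted p = 0.0216, and 0.052 on the scale of the hybridization controls). In starch synthesis the ADP-glucose pyrophosphorylase genes AGPLS3 and Agp2 were higher, by 1.98 ± 0.46 and 1.42 ± 0.18 (adjusted p = 0.0202 and 0.00153).

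Few photosynthesis genes passed with 12 arrays. The lists of C4 and Calvin cycle enzymes (14 probe sets) and of photosystem and light-harvesting proteins (12) had 0 called in limma, with 1 higher and 4 lower in the first and 0 higher and 1 lower in the second at an unadjusted p under 0.05. With 11 arrays the first had 1 higher and 6 lower and the second 0 higher and 4 lower. Of all probe sets, 20.6% were then higher and 24.4% lower. Cab-m7, lhcb5, lhcb6, psah1 and psan1 lay between 13.61 and 14.12 on every array. Whether values this high leave room for a change was not tested. me3, rca1 and psad1, from these lists, differed by -1.19, -1.38 and -0.67 with 12 arrays and did not pass. With 11 arrays they passed, at -1.56, -1.81 and -0.89, while pep1 and pdk1 did not, at -0.50 and -0.49. pdrp1, the regulator of pyruvate phosphate dikinase in the C4 cycle, differed by -1.85 ± 0.56 (adjusted p = 0.0472). pdlk2, a pyruvate dehydrogenase kinase by its alias PDK2, differed by -2.27 ± 0.55 (adjusted p = 0.0234).

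Genes of phenolic compounds and lignin were lower in Cat100-6 at 4 of 7 probe sets and higher at 0, with a median of -1.20. With 11 arrays 6 were lower and 0 higher. LAC1, a laccase, an enzyme family that couples lignin units, read 10.37, 10.70 and 10.61 in Cat100-6 control soil, 7.67, 6.61 and 8.45 in acid soil, 8.02, 8.16 and 9.33 in S1587-17 control soil, and 7.83, 7.83 and 7.33 in acid soil. Only Cat100-6 control soil was above the rest. It differed by -2.14 ± 0.61 (adjusted p = 0.0395). fht1, the flavanone 3-hydroxylase, differed by -1.91 ± 0.57 (adjusted p = 0.0461) and the cinnamoyl-CoA reductase gene cncr1 by -1.76 ± 0.52 (adjusted p = 0.0459, and 0.054 on the scale of the hybridization controls). The calls of LAC1, fht1 and cncr1 held in 2 of the 12 fits with 1 array left out, those without Cat100-6 acid soil replicate 3 and without S1587-17 control soil replicate 3.

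Ion transport genes were lower at 5 of 14 probe sets and higher at 0 (median -0.94). With 11 arrays 11 of 14 were lower and 1 higher. kch4 (LOC542053), a potassium channel, read 5.38, 5.17 and 5.74 in Cat100-6 control soil, 3.10, 2.53 and 3.27 in acid soil, 3.36, 3.11 and 3.53 in S1587-17 control soil, and 3.03, 2.92 and 2.94 in acid soil. The 9 other arrays lay between 2.53 and 3.53, below Cat100-6 control soil. Of the seed genes used as markers, z1C2, gz50 and dzs18 read between 2.035 and 3.747 in these leaves, and gz27 up to 7.449. RMA values carry no detection calls, so whether the low kch4 values exceed background is not known. The difference was -2.09 ± 0.28 (adjusted p = 0.00185). The potassium channel gene kch3 differed by -2.02 ± 0.52 (adjusted p = 0.0298) and the phosphate transporter gene pht1 by -1.46 ± 0.38 (adjusted p = 0.0305).

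Of 40 aquaporin probe sets, which report membrane channels for water and small solutes, 5 were lower and 1 higher (5.92% and 8.76% of all). With 11 arrays 16 were lower and 2 higher (24.4% and 20.6% of all). The median of -0.20 turned to 0.20 with arrays set to the hybridization controls. nip2b, a NOD26-like channel of the group that carries silicon, differed by -2.42 ± 0.70 (adjusted p = 0.0427), and the plasma membrane gene pip2f and the tonoplast gene tip2b by -1.18 ± 0.25 and -1.10 ± 0.25 (adjusted p = 0.0143 and 0.0202). The calls of pip2f and tip2b ended on that scale (adjusted p = 0.099 and 0.14).

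Hormone genes went both ways, with 2 higher and 3 lower of 21 probe sets, and 2 higher and 10 lower with 11 arrays (20.6% and 24.4% of all). RR7 (LOC541633), a cytokinin response regulator, differed by -1.58 ± 0.33 (adjusted p = 0.0137), and the auxin-binding protein gene abp1 by 1.18 ± 0.21 (adjusted p = 0.00698). Other negative differences were those of chn1, a chitinase (-2.17 ± 0.64, adjusted p = 0.0439), the O-methyltransferase gene zrp4, first known from maize roots (-1.81 ± 0.30, adjusted p = 0.00571), and ts2, a dehydrogenase of sex determination in the tassel (-1.77 ± 0.46, adjusted p = 0.0306). CAT3, a catalase that removes hydrogen peroxide, differed by -1.19 ± 0.30 (adjusted p = 0.0272). Its call ended on the scale of the hybridization controls (adjusted p = 0.088, and 0.057 with 11 arrays).

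**Figure D4:**
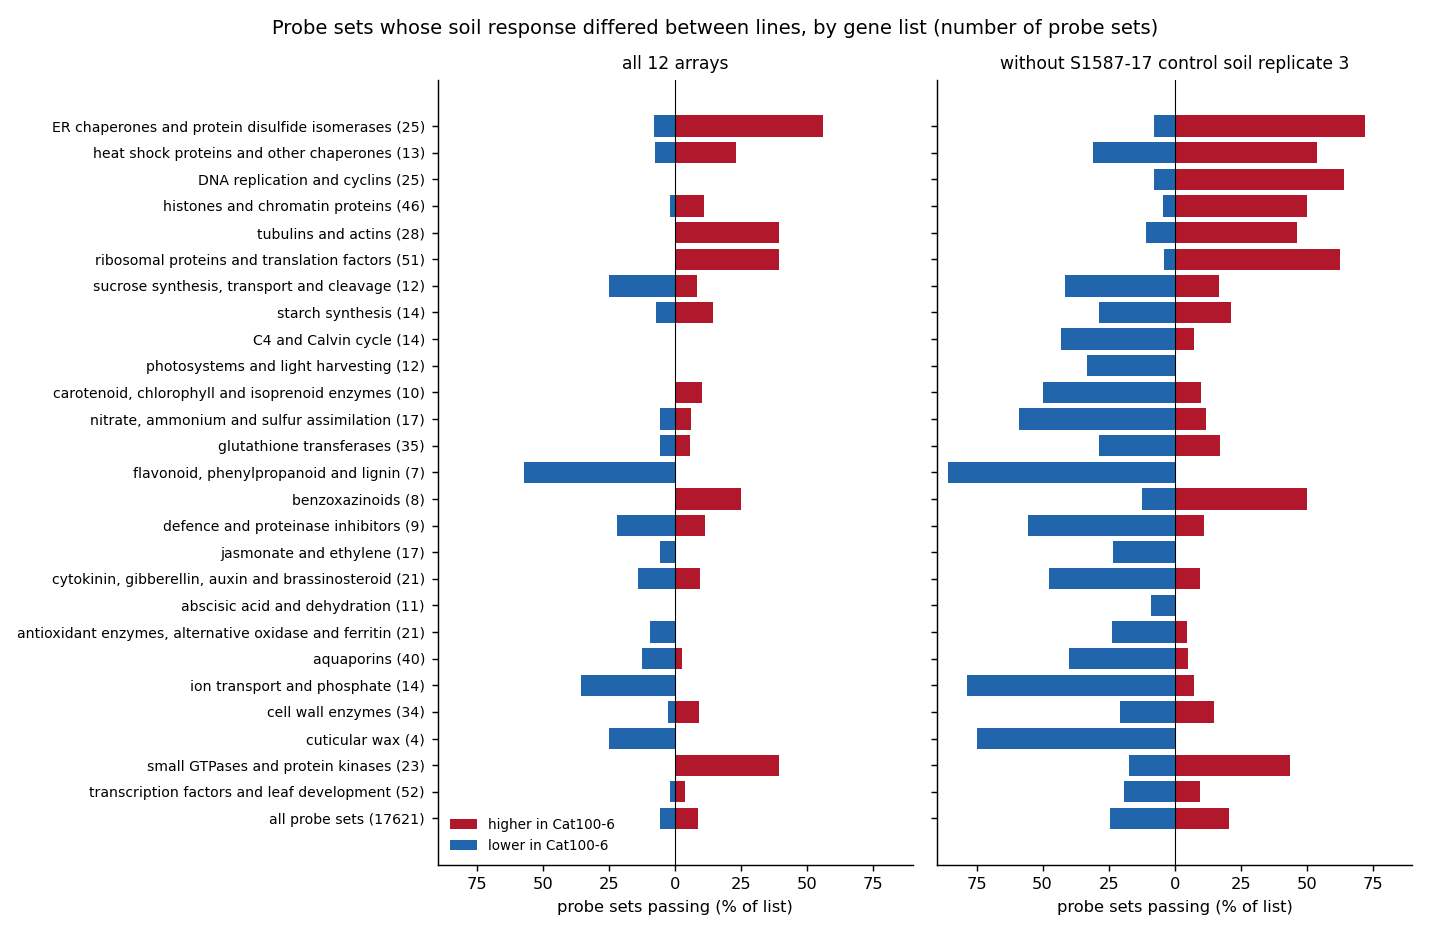
Percentage of the probe sets of each list that passed higher (red, right) or lower (blue, left) in Cat100-6, with 12 arrays in the left and 11 in the right panel, and the number of probe sets in brackets. The bottom bar gives all 17621 probe sets. DNA replication genes have no bar with 12 arrays and 16 of 25 probe sets higher with 11.

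The remaining lists had at most 3 calls in a direction with 12 arrays, where 8.76% of all probe sets were higher and 5.92% lower. Glutathione transferases, which attach glutathione to toxic compounds, had 2 higher and 2 lower of 35, with gst11 at 1.57 ± 0.32 (adjusted p = 0.0133). Cell wall enzymes had 3 higher and 1 lower of 34, transcription factors and leaf development genes 2 and 1 of 52, and nitrate, ammonium and sulfur assimilation 1 and 1 of 17. Benzoxazinoid probe sets had 2 higher and 0 lower of 8, both of them of bx6. At 1 probe set per gene the benzoxazinoid list had 1 higher of 7 and cell wall enzymes 2 higher and 1 lower of 27. Defence genes had 1 higher and 2 lower of 9, starch synthesis 2 and 1 of 14, and carotenoid, chlorophyll and isoprenoid enzymes 1 and 0 of 10. Antioxidant enzymes had 2 lower of 21, jasmonate and ethylene genes 1 lower of 17 and cuticular wax genes 1 lower of 4, with 0 higher in each. The median difference was -1.67 for wax, a list of 2 genes, and -1.05 for defence, against -0.10 over all probe sets. At an unadjusted p under 0.05 in limma, 3 of the 4 wax probe sets were lower. Abscisic acid and dehydration genes had 0 called of 11 in limma, and 1 lower at an unadjusted p under 0.05.

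With 11 arrays, where 20.6% of all were higher and 24.4% lower, these lists had more lower than higher calls except for benzoxazinoids, with 4 higher and 1 lower. Glutathione transferases had 6 higher and 10 lower, cell wall enzymes 5 and 7, transcription factors 5 and 10, and nitrogen and sulfur genes 2 and 10. Defence genes had 1 higher and 5 lower, starch synthesis 3 and 4, the carotenoid, chlorophyll and isoprenoid list 1 and 5, and antioxidant enzymes 1 and 5. Jasmonate and ethylene genes had 4 lower, wax genes 3 and abscisic acid genes 1, with 0 higher in each.

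Of the 166 named genes that passed, 36 had several probe sets, and in 16 of these all probe sets passed in the same direction. The probe sets of 1 gene outside the 166 disagreed widely, and the gene was singled out after its values were seen. A probe set of MNB1b that is not its brightest differed by 6.06 with 12 arrays (adjusted p = 0.0093) and by 7.37 with 11, above every other probe set with a gene name. The brightest of its probe sets, which stands for the gene in the counts, differed by -0.06 and did not pass (adjusted p = 0.717).

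A smaller set of genes diverged in acid soil instead. Among the 166 named genes, 20 had a larger gap between lines in acid than in control soil, and 146 a smaller one. The gap was smaller in 84.2% of the 2588 probe sets and in 66.4% of all. A larger gap in acid soil was thus rarer among these genes than over all probe sets. zmm29 (LOC542020), a MADS-box transcription factor, read 4.45, 4.43 and 4.01 in Cat100-6 control soil, 6.15, 5.80 and 5.79 in acid soil, 4.46, 4.23 and 4.31 in S1587-17 control soil, and 4.30, 4.05 and 4.35 in acid soil. Cat100-6 acid soil was above the other 9 arrays, which overlapped, and the difference was 1.72 ± 0.21 (adjusted p = 0.00132).

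asn1 (LOC542435), an asparagine synthetase that stores nitrogen in a transportable form, read 10.35, 9.00 and 9.81 in Cat100-6 control soil, 11.57, 11.35 and 11.60 in acid soil, 8.95, 9.32 and 9.29 in S1587-17 control soil, and 9.29, 9.31 and 9.43 in acid soil. The Cat100-6 acid arrays were the highest. The difference was 1.64 ± 0.37 (adjusted p = 0.0189, and 0.052 without S1587-17 acid soil replicate 1), while a dimmer probe set of the gene differed by 0.34 and did not pass (adjusted p = 0.224).

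The glutathione transferase gene gst37 (LOC541846) read 6.80, 6.76 and 6.93 in Cat100-6 control soil, 6.17, 6.27 and 6.26 in acid soil, 6.84, 6.82 and 6.84 in S1587-17 control soil, and 6.90, 6.99 and 7.06 in acid soil. The Cat100-6 acid arrays were below the other 9, by a small step, and the difference was -0.74 ± 0.12 (adjusted p = 0.00489, and 0.46 on the scale of the hybridization controls). xet1 (LOC542312), which remodels wall xyloglucan, differed by -2.44 ± 0.75 (adjusted p = 0.0499), its Cat100-6 acid arrays at 5.66, 4.12 and 6.65 being below every other array. That call held only without Cat100-6 acid soil replicate 3 and without S1587-17 control soil replicate 3 among the 12 fits with 1 array left out. The α-expansin gene expA4, which loosens walls, and bx6, a dioxygenase of benzoxazinoid synthesis, differed by 1.21 ± 0.31 and 0.82 ± 0.22 (adjusted p = 0.0282 and 0.0322). The other probe sets of expA4 did not pass with 12 arrays and passed with 11.

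Cell division and chromatin genes depended on 1 array. Of 25 probe sets for DNA replication and cyclins, 0 passed with 12 arrays in limma (4 higher and 2 lower at an unadjusted p under 0.05), with a median of 0.63, and 16 were higher and 2 lower with 11. For histones and chromatin proteins the counts were 5 higher and 1 lower of 46, and 23 higher and 2 lower with 11. The cyclin gene cyc3 (LOC542305) read 3.47, 3.76 and 3.67 in Cat100-6 control soil, 7.15, 8.23 and 7.25 in acid soil, 7.62, 7.86 and 3.26 in S1587-17 control soil, and 7.44, 7.68 and 7.86 in acid soil. The third S1587-17 control array lay below the Cat100-6 control arrays. Its difference was 2.49 ± 1.31 with 12 arrays (adjusted p = 0.195) and 3.98 ± 0.36 with 11 (adjusted p = 1.71e-05).

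The same array was low in nfd101, a gene for a chromatin protein, which read 6.82, 6.88 and 6.64 in Cat100-6 control soil, 10.89, 11.79 and 10.90 in acid soil, 11.76, 11.78 and 7.26 in S1587-17 control soil, and 11.49, 11.65 and 12 in acid soil. Its difference was 2.96 ± 1.31 (adjusted p = 0.132) and 4.47 ± 0.32 with 11 arrays (adjusted p = 4.83e-06). glu1, a β-glucosidase that releases benzoxazinoids, differed by 5.18 ± 0.34 with 11 arrays (adjusted p = 2.58e-06) and by 3.80 ± 1.22 with 12 (adjusted p = 0.0571). Its S1587-17 control arrays read 9.79, 10.59 and 6.04, against 5.82, 5.96 and 5.36 in Cat100-6 control soil. Among probe sets that passed only with 11 arrays and had a control gap of at least 1 log2 unit, this array lay at a median of 0.616 of the way to Cat100-6 control soil, and at 0.394 among those that passed in both fits. These sets were formed by whether the call held with this array included, so the order of the medians is a description.

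**Figure D5:**
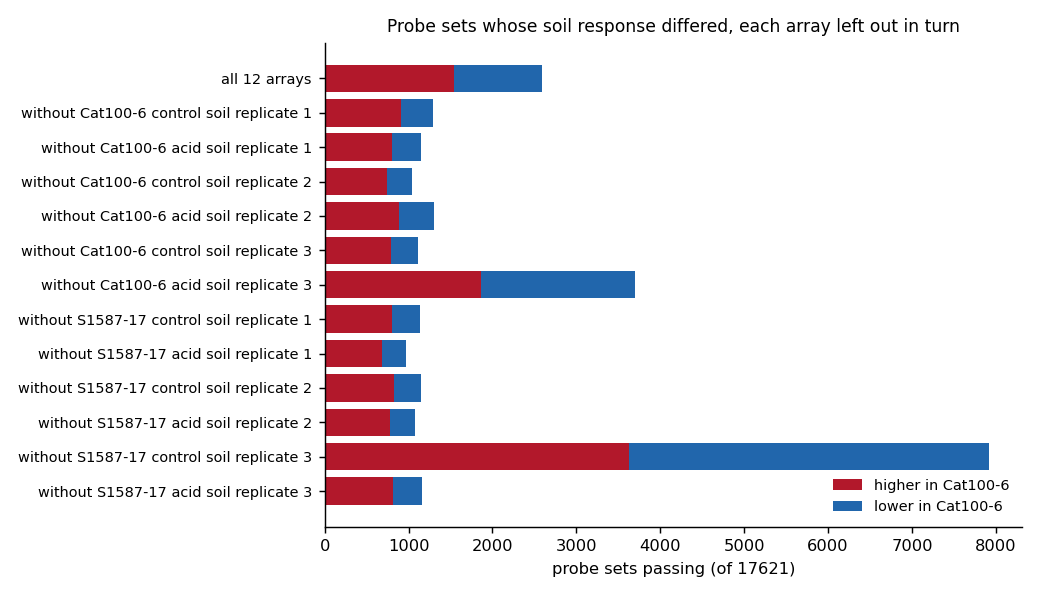
Number of the 17621 probe sets whose soil response differed, with all 12 arrays (top) and with each array left out in turn. Red is higher and blue lower in Cat100-6. The count is 2588 with all arrays, 7920 without S1587-17 control soil replicate 3, 3695 without Cat100-6 acid soil replicate 3 and between 967 and 1306 without any 1 of the others.

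The calls were fewest when an array other than these was removed. Without S1587-17 acid soil replicate 1 967 probe sets passed, and 3695 passed without Cat100-6 acid soil replicate 3. In each of the 12 fits 870 probe sets passed, 649 higher and 221 lower, among them 57 of the 166 named genes. crt2, pdi6, pdi7, tub4, tua6, rop6, rop7, rps27, prp2, thi2, nip1a, sus1, Agp2, sps1, kch4, zrp4, RR7, abp1, zmm29, gst37 and pip2f were in this group. Of the 65 genes named by the rule that passed in both fits, 27 passed in each of these fits, and 24 passed only in the fits without Cat100-6 acid soil replicate 3 and without S1587-17 control soil replicate 3. For these 24, among them bip1, CPN60I, hsp22, LON2, rop3, hmg2, lbl1, fps1, sut1, LAC1, fht1, cncr1, nip2b, pht1, chn1, ts2, pdrp1, xet1 and expA4, the highest adjusted p with an array left out was 0.071 to 0.116. The other calls ended without at least 1 array, at adjusted p up to 0.102.

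The probe sets with the highest and the lowest difference with 12 arrays have no gene name in the platform annotation. The highest read 5.31, 5.11 and 5.49 in Cat100-6 control soil, 12.37, 12.70 and 12.24 in acid soil, 12.52, 12.42 and 9.82 in S1587-17 control soil, and 12.31, 12.34 and 12.35 in acid soil. It was low only in Cat100-6 control soil, and differed by 6.39 ± 0.77 (adjusted p = 0.00126). The lowest differed by -3.28 ± 0.54 in limma (adjusted p = 0.00546). Its Cat100-6 control arrays read 8.998 or above, and all other arrays 6.397 or below. Its platform identifier shares its stem with those of the pdk1 probe sets on the C4 list, which were not called with 12 arrays. The brightest of these differed by -0.38 (adjusted p = 0.347). Whether the unnamed probe set reports pdk1 was not tested. Another unnamed one, among the lowest, had responses of opposite sign. In Cat100-6 it read 6.18, 6.33 and 6.42, then 5.11, 4.40 and 4.99, in control and acid soil. The S1587-17 arrays read 6.77, 6.90 and 7.38, then 8.15, 8.69 and 8.58, a difference of -2.94 ± 0.31 (adjusted p = 0.000565).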

How the data were processed

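The authors deposited 1 table of log2 expression values made with RMA, per the submitters' processing notes. The software version: not given in the sources used here. RMA values carry no detection calls, and arrays have no read depth, so their number limits the precision. Of 17734 probe sets, 113 control sets were left out. Reporter sequences of the array's design (66 probe sets) remained among the 17621 tested. The platform annotation gave 1 gene symbol to 1452. Names were updated with RefSeq gene names (B73 NAM 5.0), which held 1060 of the 1108 genes, and coordinates were not used.

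Group means were fitted with limma 3.58.1 in R 4.3.3, with 8 residual degrees of freedom (7 with 11 arrays), empirical Bayes moderation and Benjamini-Hochberg adjustment. An adjusted p under 0.05 counted as passing. The fit was also run on simulated data with known differences, independent noise and no outlying array. That run cannot show how the fit behaves with the array that stood apart. Figures were drawn with matplotlib 3.10.9.

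The comparison, the 26 gene lists and the named genes were chosen with earlier results of these data known, and list matches were edited by gene name afterwards. por1 was taken out of the list of carotenoid, chlorophyll and isoprenoid enzymes after its values were seen, because the RefSeq table calls it porin1. With its 2 probe sets that list had 3 of 12 higher with 12 arrays, and without them 1 of 10. por1 itself differed by 1.31 (adjusted p = 0.00631) and would have been named. Genes were taken at the probe set of highest mean, and those named were the 15 highest and 15 lowest differences that passed in both fits, per list up to 2 more members of lowest p, up to 5 with opposite responses, and the 5 with the lowest p that passed with 11 arrays only. Some of them are given only in the closing section. nfd106 and met5, which passed with 11 arrays only, are given here. With 12 arrays they differed by 2.74 and 1.63 in limma (adjusted p = 0.136 and 0.302), and with 11 by 4.13 and 2.90. A dimmer probe set of met5 differed by -0.06 with 11 arrays and did not pass.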

Additional observations from a re-analysis of the deposited data

Results flagged for a closer look

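The values here are differences of soil responses between the lines (log2, Cat100-6 minus S1587-17, 12 arrays), listed because the difference itself passed the test in limma, as it did for 2588 probe sets with 12 arrays and 7920 with 11. All genes below passed with 12 and with 11 arrays.

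Protein folding and breakdown genes were crt2 at 2.56, pdi at 2.40, pdi6 at 1.34, pdi7 at 1.25, bip1 at 1.81, CPN60I at 1.87, hsp22 at 1.46, LON2 at 1.96 and hsp18 at -1.67. Translation and cytoskeleton genes were rps27 at 1.09, arpp2a-3 at 1.74, tub4 at 1.40 and tua6 at 1.23. Signalling genes were rop6 at 3.28, rop3 at 2.21, rop7 at 1.24 and GTPase at 1.27. Chromatin and transcription genes were hmg2 at 2.76, lbl1 at 2.53, dmt106 at 0.90, rpd3 at -0.84, zmm29 at 1.72, ocl1 at 1.16 and homeobox2 at -0.69.

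Sugar and starch genes were sps1 at -3.17, sut1 at -2.36, incw1 at -1.36, sus1 at 1.39, AGPLS3 at 1.98 and Agp2 at 1.42. Other metabolic genes were gpc3 at 1.29, gpc4 at 1.77, pdlk2 at -2.27, pdrp1 at -1.85, thi2 at 2.55, fps1 at 2.78, asn1 at 1.64 and Hb2 at -0.96. Phenolic, wall and defence genes were LAC1 at -2.14, fht1 at -1.91, cncr1 at -1.76, ccr2 at -1.20, zrp4 at -1.81, xet1 at -2.44, expA4 at 1.21, expB8 at 0.65, bx6 at 0.82, chn1 at -2.17, PER66 at -1.25 and prp2 at 3.38. The 3 probe sets of expB8 disagreed, at 0.65, 1.68 and -0.23.

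Transport genes were kch4 at -2.09, kch3 at -2.02, pht1 at -1.46, nip1a at 1.91, nip2b at -2.42, pip2f at -1.18 and tip2b at -1.10. Hormone and stress genes were aic1 at 1.95, abp1 at 1.18, RR7 at -1.58, opr1 at -0.58, ts2 at -1.77, gst11 at 1.57, gst37 at -0.74 and CAT3 at -1.19.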

How the results depend on the processing

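With 12 arrays 2588 probe sets passed (1544 higher, 1044 lower). Leaving out each array in turn gave 967 to 7920 (689 to 3627 higher, 278 to 4293 lower). Array weights gave 7381 (3429 and 3952), and a test for at least 1 log2 unit gave 26 (25 and 1). Without the 40% dimmest probe sets 2548 of 10573 passed (1569 and 979), and 494 of the 2588 were among those left out. Dim named genes included kch4, opr1, kch3, AGPLS3 and zmm29, with means over all arrays of 3.67, 4.24, 4.37, 4.40 and 4.70. Subtracting array medians gave 1365 and 1745 (43.89% higher, against 59.66%), and setting arrays to the hybridization controls 2000 and 173 (92.04% higher). With 11 arrays 7920 passed (45.8% higher), 6295 to 8567 with a further array left out (3171 to 3845 higher, 3124 to 4722 lower). Subtracting medians then gave 36.21% higher, and the hybridization controls 4765 passing, 3975 higher and 790 lower (83.42% higher). The replicate block gave 3494 with 12 arrays (1894 and 1600) and 7456 with 11. Same-numbered arrays correlated at -0.292 to 0.683 after group means were removed. The highest values, 0.683 and 0.673, were between Cat100-6 acid and S1587-17 control soil for replicates 2 and 3. Arrays of different numbers were not compared, so these values cannot decide whether the numbers pair the samples, and the main fit did not pair them. The cause of the changes in the counts was not tested. Of the 65 named genes that passed in both fits, 52 passed on the scale of the hybridization controls and 27 with every array left out in turn. No named difference changed sign under the alternatives run. Medians of the lists for sucrose, starch, C4 and hormones (12 arrays only for the last pair), photosystems, nitrogen and sulfur, glutathione transferases, jasmonate, abscisic acid, antioxidants, aquaporins, cell wall and transcription factors turned positive on that scale.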
